A study of Mus musculus with 8 samples.

Results

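Fatty acids are the main fuel of the adult heart, and the genes that handle them form a chain of steps that starts at the cell surface and ends in the mitochondrion. A fatty acid is taken up and carried through the cytosol, activated to an acyl-CoA, passed into the mitochondrion as a carnitine ester, and shortened by rounds of β-oxidation whose electrons reach the respiratory chain through a flavoprotein. Side routes release the free acid again (thioesterases), set the level of the shuttle's inhibitor malonyl-CoA, uncouple respiration, or store the acid as triglyceride. The 39 genes of this chain were chosen by name, and all 39 were found among the 55679 genes of the expression table. They comprised 5 uptake genes, 4 activation genes, 4 genes of the carnitine shuttle, 14 β-oxidation genes, 3 electron transfer genes, 3 thioesterases, 4 genes of malonyl-CoA and uncoupling, and 2 triglyceride synthesis genes.

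The question was how this chain differed between the hypertensive-LVH group (left ventricular hypertrophy) and the control group. Both groups were male wild-type C57BL/6J mice that carried an osmotic pump under the skin for 7 days, filled with saline in the control group (n = 4) and with angiotensin II (ANG II, a pressor peptide) in the hypertensive-LVH group (n = 4, 1500 ng/kg/min). Hearts were flushed with saline, and polyadenylated RNA of the left ventricle was sequenced, with each sample taken as a separate mouse. The age of the mice is not given in the sources used here. Because the labels do not say that replicates came from separate mice in so many words, the p-values measure the spread between these samples.

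Values are FPKM, fragment counts scaled to transcript length and sequencing depth, so levels of different genes can be compared per length. The libraries held between 14455654 and 16564828 recovered fragments, and 37 of the 39 genes had at least 100 fragments in every library. The 10 cardiomyocyte markers were abundant in every library, led by the ventricular myosin light chain Myl2 at 10947 FPKM in the control group and 7890.4 FPKM in the hypertensive-LVH group. The 37 mitochondrially encoded genes took 29.4% ± 0.594 of all FPKM in the control group and 22.8% ± 1.17 in the hypertensive-LVH group (SD, n = 4 each, exact two-sided permutation p = 0.0286, the smallest that 4 against 4 can give). As deposited, the median log2 fold change of all 19364 genes tested was 0.15, and median-of-ratios scaling, which sets the libraries to a common median gene, brought it to 0.00. Scaled values stand beside the deposited ones where the call or the direction changed. For each of the genes that fell, the scaled log2 fold change lay further below 0 than the deposited value.

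In the hypertensive-LVH group, 11 of 14 β-oxidation genes, 2 of 3 electron transfer genes and 2 of 4 genes of the carnitine shuttle were lower than in the control group, whereas Ucp2, Acsl5, Acsl4, Fabp4 and Cpt1a were higher. At an adjusted p under 0.05 (limma, adjusted over all genes tested), 19 of the 39 genes fell and 5 rose. Among all genes tested, 4.91% fell and 28.4% rose by this rule. After median-of-ratios scaling the same rule gave 27 lower and 3 higher, against 13.1% and 14.6% of all genes. A gene was called when its absolute log2 fold change also exceeded 0.5. By that rule 4 of the 39 genes were called lower, namely Acaa2, Ech1, Dgat2 and Hadh, against 1.41% of all genes, and 2 were called higher, Ucp2 and Acsl5, against 14% of all genes. With the scaled values the calls were 20 lower and 1 higher, against 4.15% and 8.62% of all genes. The 20 were the same 4 genes with Acsl1, Cpt2, Crat, Acadm, Acads, Hadha, Hadhb, Echs1, Eci1, Decr1, Etfa, Etfb, Etfdh, Acot1, Mlycd and Acacb. Under quantile normalization 17 were called lower and 1 higher (5.09% and 7.3% of all genes), under a common total without the mitochondrially encoded and top 10 genes 17 and 2 (3.23% and 9.59%), and under voom on recovered fragments with median-of-ratios scaling 21 and 2 (5.5% and 11.4%). Above an absolute log2 fold change of 1, 0 were called lower and 1 higher as deposited (0.145% and 3.96%). The median log2 fold change of the 39 genes was -0.32 as deposited, or -0.47 relative to the median of all genes tested, and -0.55 after scaling.

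The groups did not overlap for 26 of the 39 genes. All 4 ANG II libraries lay below all 4 controls for 21 genes, against 5.06% of all genes tested, and above them for 5, against 28.7%. Some calls near the fold change threshold depended on 1 library. Without control library 2, 5 genes were called higher (14.3% of all genes), with Fabp4, Acsl4 and Cpt1a added. Without ANG II library 4, 4 genes were called higher (13.9% of all genes), with Fabp5 and Acsl4 added. Without ANG II library 3, 7 genes were called lower (1.49% of all genes), with Acadm, Cpt2 and Etfb added.

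**Figure D1:**
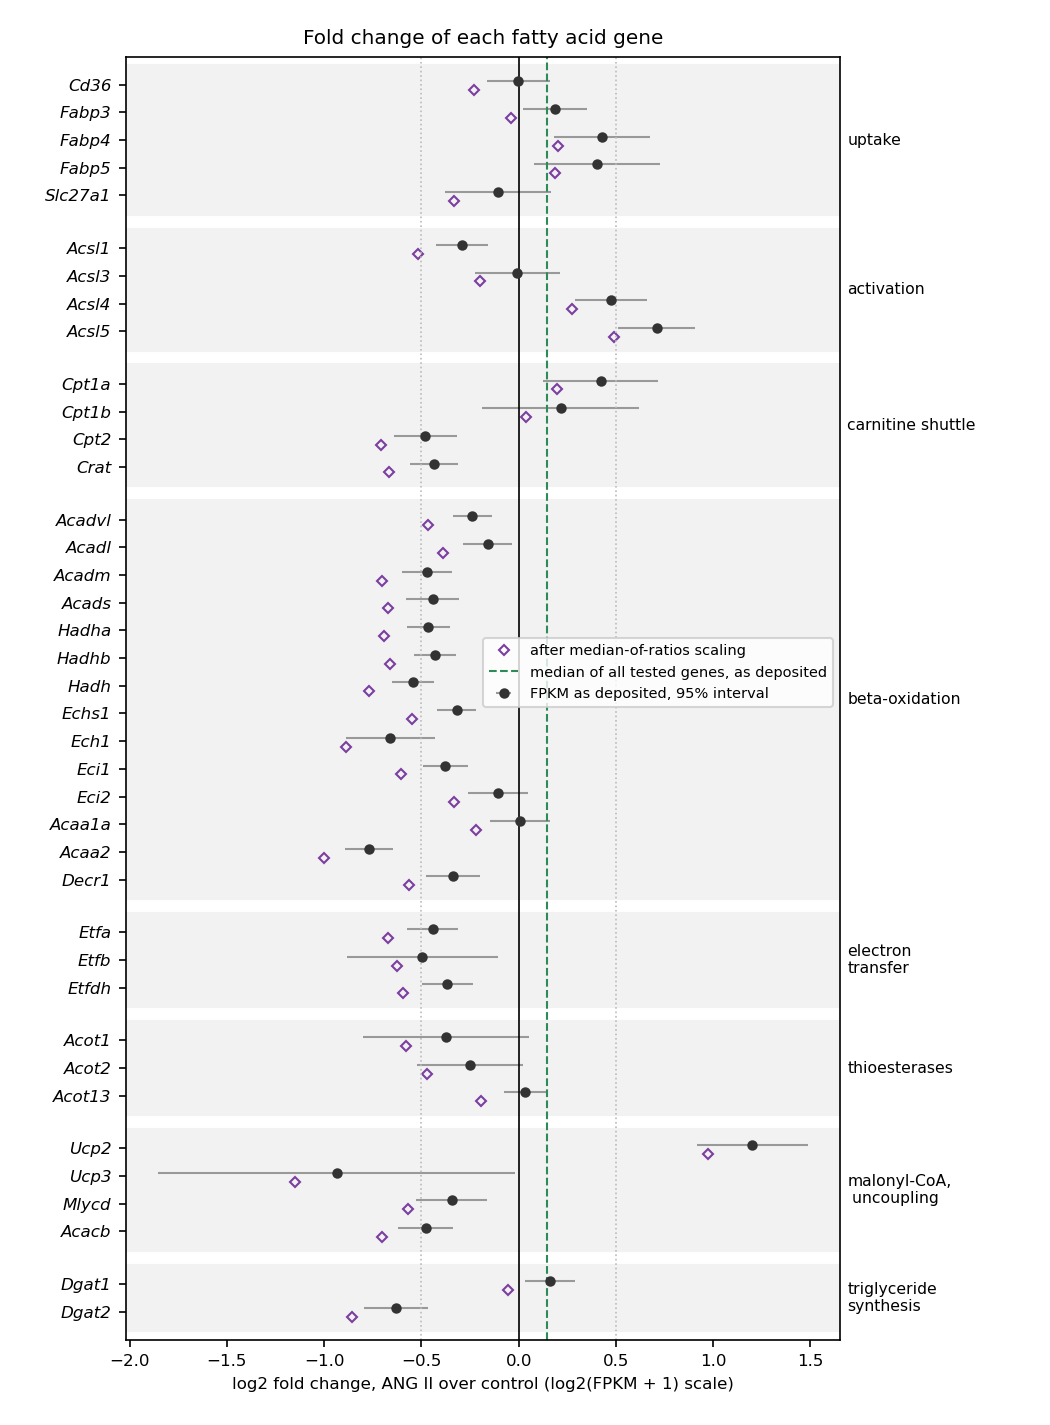
Log2 fold change (ANG II over control, log2(FPKM + 1) scale) of each of the 39 genes by step. Filled points with bars are the deposited values with 95% intervals, open diamonds are the values after median-of-ratios scaling, dotted lines mark the fold change threshold of 0.5, and the dashed line marks the median of all tested genes at 0.15. Most β-oxidation genes lie between -0.24 and -0.77, while Ucp2 lies at 1.20.

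The summed level of the 14 β-oxidation genes was 7879 ± 215 FPKM in the control group and 5756 ± 284 FPKM in the hypertensive-LVH group (SD, n = 4 each), a change of -26.9%. Electron transfer genes changed by -25.1%, from 1133 ± 36.6 to 848 ± 54.2 FPKM, and the carnitine shuttle by -23.0%, from 556 ± 42.7 to 429 ± 10.5 FPKM. Triglyceride synthesis changed by -32.8% and activation by -15.2%, the latter from 544 ± 30.0 to 462 ± 21.9 FPKM. The direction for the 5 uptake genes depended on the scaling: as deposited their sum was 3740.1 ± 190.2 FPKM in the control group and 4175 ± 312 FPKM in the hypertensive-LVH group, a change of 11.6%, and after scaling the change was -4.76%. The sum of the malonyl-CoA and uncoupling genes also turned, from a change of 3.35% as deposited to -11.9% after scaling. The thioesterases summed to 427 ± 6.45 and 426 ± 18.5 FPKM as deposited, and their scaled sum changed by -14.8%. On the scaled values the sum of the β-oxidation genes changed by -37.7%. These sums follow the most abundant gene of each step and are given as a description, with no test.

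**Figure D2:**
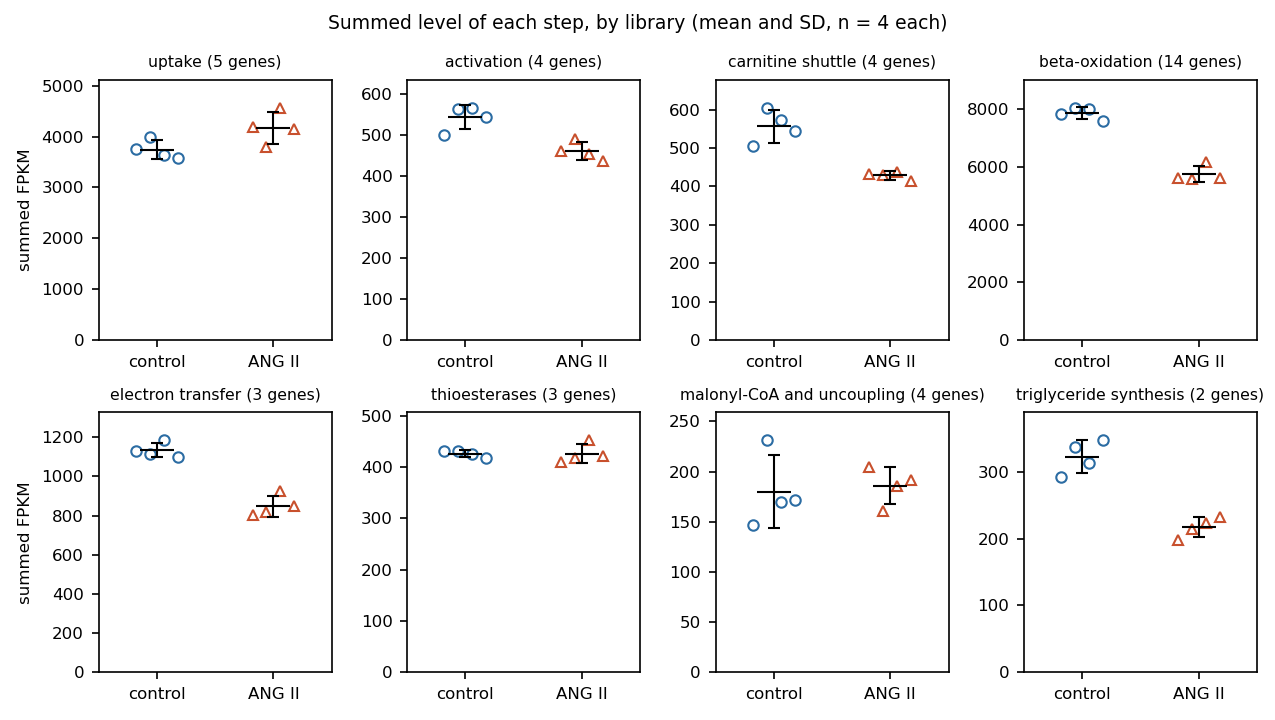
Summed FPKM of the genes of each step in each library, with circles for control and triangles for ANG II libraries, and the mean and SD (n = 4 each). The groups stand apart for activation, the carnitine shuttle, β-oxidation (7879 against 5756 FPKM on average), electron transfer and triglyceride synthesis, and overlap for the other steps as deposited.

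Of the 5 uptake genes, 1 rose and 0 fell at an adjusted p under 0.05 (limma), while 28.4% of all genes tested rose and 4.91% fell. The step held very abundant transcripts. Fabp3, the fatty acid-binding protein of heart muscle, was the most abundant of the 39 genes. Its FPKM was 2688, 2858, 2609 and 2570.0 in the control libraries and 3059, 2811, 3313 and 3042 in the ANG II libraries. The groups overlapped, with ANG II library 2 below control library 2. The log2 fold change was 0.19 (SE 0.07, adjusted p = 0.0754) as deposited and turned to -0.04 after scaling, with an adjusted p of 0.741. In GENCODE M21, 29.2% of the 50-base words of Fabp3 transcripts also occur in the pseudogene Fabp3-ps1, so part of its reads could have been assigned to either. Cd36, the translocase that binds long-chain fatty acids at the cell surface, had 816 ± 31.5 FPKM in the control group and 817 ± 77.2 FPKM in the hypertensive-LVH group. Its log2 fold change of -0.00 had a 95% interval from -0.16 to 0.16, and after scaling it was -0.23 with an adjusted p of 0.0368. Slc27a1, a fatty acid transport protein with acyl-CoA synthetase activity, had 63.8 ± 9.33 FPKM in the control group and 59.2 ± 8.69 FPKM in the hypertensive-LVH group, with an adjusted p of 0.547.

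Fabp4, the binding protein of adipocytes, macrophages and capillary endothelium, was the uptake gene that rose. It ran from 142 to 192 FPKM in the control libraries and from 194 to 246 FPKM in the ANG II libraries, so the groups just failed to overlap. The log2 fold change was 0.43 (SE 0.11, adjusted p = 0.0136). After scaling it was 0.20 with an adjusted p of 0.195. Fabp5, a related binding protein of epidermis, endothelium and macrophages, had a similar log2 fold change of 0.40 with an adjusted p of 0.0561. Fabp3 still made up 93.7% ± 0.472 of the summed FPKM of Fabp3, Fabp4 and Fabp5 in the control group and 92.7% ± 0.730 in the hypertensive-LVH group.

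Among the long-chain acyl-CoA synthetases, which join a fatty acid to coenzyme A, 1 isoform fell and 2 rose. Of all genes tested, 4.91% fell and 28.4% rose. Acsl1, the main isoform of heart muscle, had 475, 540.0, 543 and 521 FPKM in the control libraries. The ANG II libraries had 421, 455, 418 and 404 FPKM, all below the lowest control. Acsl1 fell by 0.29 on the log2 scale (SE 0.06, adjusted p = 0.00447), and after scaling its value of -0.52 was called. Acsl5 (ENSMUSG00000024981, chr19:55251938-55297720, plus strand, GRCm38), an isoform of intestine and liver that is also expressed in immune cells, was called higher. Its FPKM was 16.4, 13.3, 14.01 and 14.6 in the control libraries and 28.2, 23.9, 24.0 and 21.9 in the ANG II libraries. Every ANG II library lay well above every control. The log2 fold change was 0.71 (SE 0.09, adjusted p = 0.000273), and after scaling it was 0.49 (adjusted p = 0.0022), just under the fold change threshold. Acsl4, an isoform that prefers arachidonic acid, had 4.85, 5.64, 4.90 and 5.06 FPKM in the control libraries and 7.47, 7.77, 7.89 and 6.83 FPKM in the ANG II libraries. It rose by 0.47 on the log2 scale (SE 0.08, adjusted p = 0.00179), again without overlap. Acsl3, an isoform of lipid droplets and the endoplasmic reticulum, had 5.05 ± 0.587 FPKM in the control group and 5.004 ± 0.378 FPKM in the hypertensive-LVH group, with a 95% interval of the log2 fold change from -0.23 to 0.21. Acsl1 supplied 95.4% ± 0.507 of the summed FPKM of the 4 isoforms in the control group and 92.0% ± 0.584 in the hypertensive-LVH group, and the share of Acsl5 was 2.69% ± 0.401 and 5.31% ± 0.555.

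**Figure D3:**
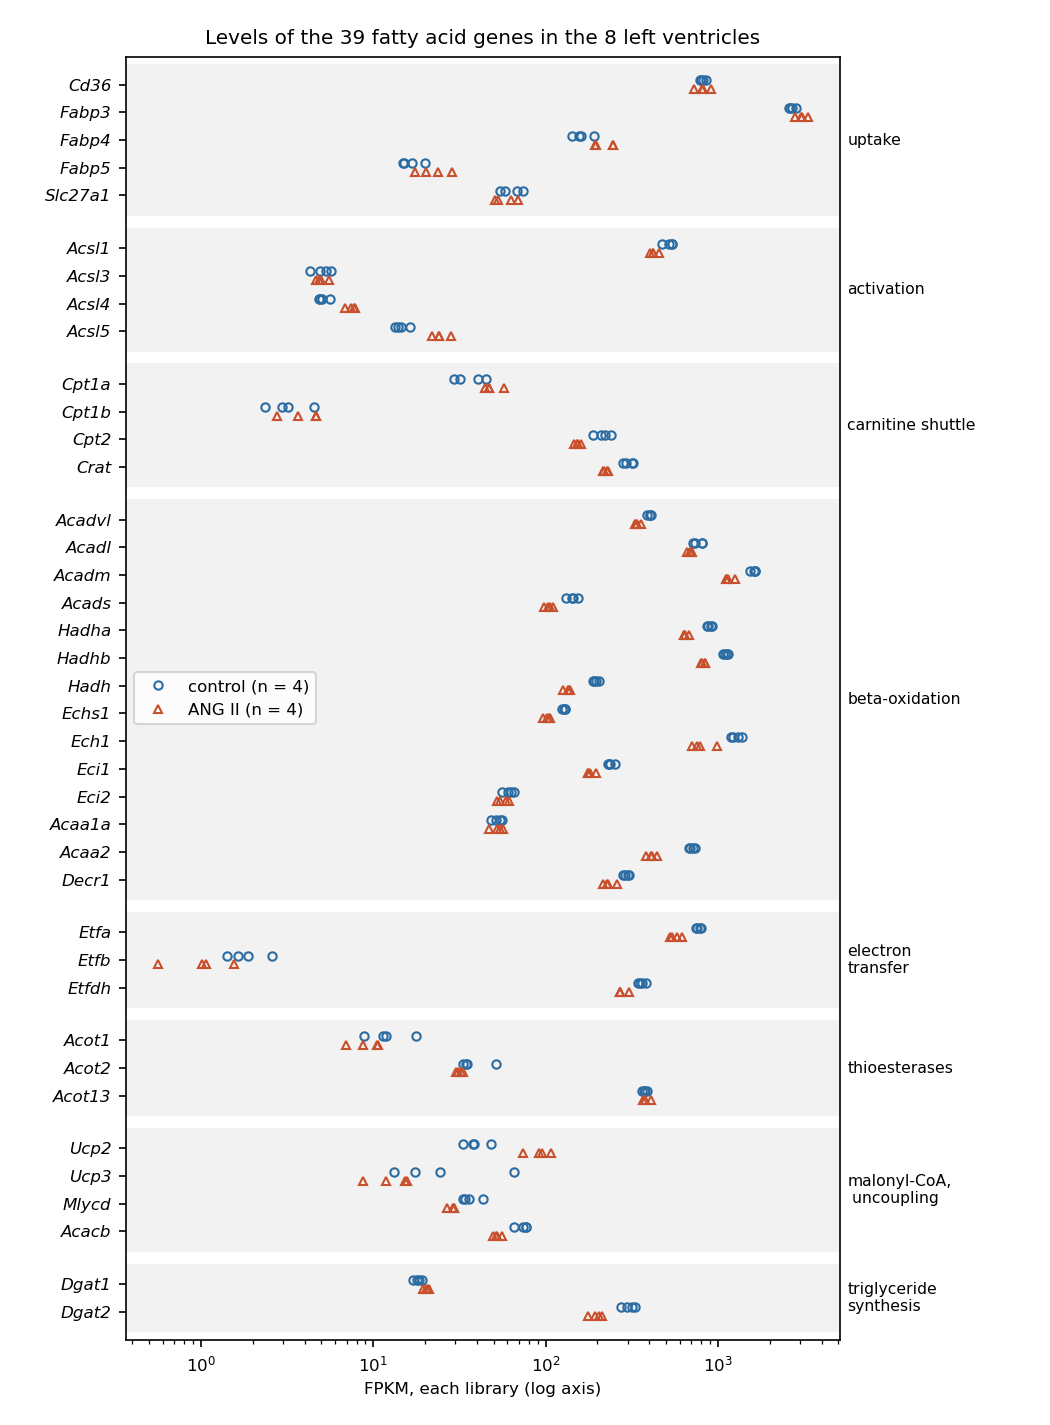
FPKM of the 39 genes in each of the 8 libraries on a logarithmic axis, with circles for control and triangles for ANG II libraries, grouped by step. Levels run from 0.567 FPKM (Etfb) to 3313 FPKM (Fabp3), and the triangles lie to the left of the circles for most genes of β-oxidation.

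In the carnitine shuttle, the genes behind the entry step fell. Crat, the carnitine acetyltransferase of the mitochondrial matrix, was the most abundant gene of the step, with 279.8, 317, 320.1 and 292 FPKM in the control libraries. The ANG II libraries had 219, 229, 227 and 216 FPKM, below every control. Crat fell by 0.44 on the log2 scale (SE 0.05, adjusted p = 0.000286), and its scaled value of -0.67 was called. Cpt2, which turns the carnitine ester back into an acyl-CoA inside the mitochondrion, fell by 0.48 (SE 0.07, adjusted p = 0.000764), from 214 ± 21.6 to 153 ± 5.95 FPKM, and was called at -0.71 after scaling. Cpt1a, the liver isoform of the entry enzyme carnitine palmitoyltransferase 1, rose by 0.42 (SE 0.13, adjusted p = 0.0331), from 36.7 ± 7.19 to 49.0 ± 5.84 FPKM, with an overlap between control library 2 at 44.8 FPKM and ANG II library 2 at 44.4 FPKM. The rise depended on the fit and the libraries used, as the adjusted p of Cpt1a was 0.0616 with a replicate block, 0.066 with no filter on low values and 0.0507 with no variance trend, and from 0.0609 to 0.0992 without ANG II library 1, 3 or 4 or control library 1 or 3. After scaling the value of Cpt1a was 0.20 with an adjusted p of 0.304.

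Cpt1b encodes the muscle isoform of the entry enzyme, the form known as the main one of adult cardiomyocytes, yet its deposited level was only 3.26 ± 0.917 FPKM in the control group and 3.93 ± 0.912 FPKM in the hypertensive-LVH group. In GENCODE M21, 81.4% of its exon length lies under Gm44502, a readthrough gene on the same strand, and Gm44502 is listed at 0 in all 8 libraries. How fragments that fall in both were counted is not given in the sources used here. The FPKM of Cpt1b is therefore not read as its level, and its log2 fold change of 0.22 (adjusted p = 0.397) rests on 46 to 87 fragments per library.

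Of the 14 β-oxidation genes, 11 fell, against 4.91% of all genes tested, and 3 of these were called lower, against 1.41%. The groups did not overlap for 12, all lower in the ANG II libraries, against 5.06% of all genes. As deposited the median log2 fold change of the step was -0.40. After scaling it was -0.63 with 10 genes called lower, against 4.15% of all genes. The acyl-CoA dehydrogenases open each round and are specialised by chain length. Acadm, the medium-chain enzyme and the most abundant gene of the step, had 1635, 1619, 1648 and 1541 FPKM in the control libraries. The ANG II libraries had 1121, 1133, 1249.6 and 1142 FPKM, all far below the controls, with library 3 the highest of them. Acadm fell by 0.47 on the log2 scale (SE 0.06, adjusted p = 0.00025), and its scaled value of -0.70 was called. The short-chain enzyme Acads fell by 0.44 (adjusted p = 0.000484) and was called at -0.67 after scaling, and the very-long-chain enzyme Acadvl by 0.24 (adjusted p = 0.00304). For Acadvl, 42.9% of the exon length lies opposite Dvl2, which had 1.78 to 3.44 FPKM, while Acadvl had 329 to 411 FPKM. The long-chain enzyme Acadl had 769.8 ± 45.4 FPKM in the control group and 689 ± 19.3 FPKM in the hypertensive-LVH group, without overlap, and its log2 fold change of -0.16 had an adjusted p of 0.0539. After scaling Acadl was at -0.39 (adjusted p = 0.0019) and Acadvl at -0.47 (adjusted p = 0.00018), under the fold change threshold.

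Hadha and Hadhb encode the α and β subunits of the mitochondrial trifunctional protein, which carries out the later reactions on long chains. Hadha fell by 0.46 (SE 0.05, adjusted p = 0.000125) and Hadhb by 0.43 (SE 0.05, adjusted p = 0.000178), and both were called after scaling, at -0.69 and -0.66. Hadha ran from 869 to 927 FPKM in the control libraries and from 635 to 684 FPKM in the ANG II libraries. Hadhb ran from 1077 to 1139 FPKM and from 799.9 to 845 FPKM. The ratio of Hadha to Hadhb lay between 0.772 and 0.849 in the control libraries and between 0.760 and 0.809 in the ANG II libraries (exact two-sided permutation p = 0.343). Both genes lie head to head on chromosome 5, with RefSeq starts 273 bases apart and promoter windows that share 228 of their 300 bases.

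For medium and short chains the same reactions are carried out by separate enzymes, 2 of which were called lower. Acaa2 (ENSMUSG00000036880), the mitochondrial 3-ketoacyl-CoA thiolase that closes each round, had 690.1, 715, 734 and 681 FPKM in the control libraries and 416, 410.0, 444 and 384 FPKM in the ANG II libraries. The highest ANG II library was far below the lowest control. Acaa2 fell by 0.77 on the log2 scale (SE 0.06, adjusted p = 1.44e-05), a change of -41.4%. Hadh (ENSMUSG00000027984, chr3:131233419-131272101, minus strand, GRCm38), the 3-hydroxyacyl-CoA dehydrogenase, had 190.1, 196, 205 and 189.5 FPKM in the control libraries and 136, 135, 138 and 126 FPKM in the ANG II libraries, again without overlap. It fell by 0.54 (SE 0.05, adjusted p = 4.59e-05). Echs1, the enoyl-CoA hydratase of the same stretch, fell by 0.32 (adjusted p = 0.000533) and was called at -0.55 after scaling.

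Unsaturated fatty acids need auxiliary enzymes that move or remove double bonds. Ech1 (ENSMUSG00000053898, chr7:28825217-28832247, plus strand, GRCm38), a dienoyl-CoA isomerase, had 1315, 1372, 1225 and 1187 FPKM in the control libraries. It had 757, 709.7, 995 and 788 FPKM in the ANG II libraries. All ANG II libraries were below the controls, but library 3 stood above the other 3. Ech1 fell by 0.66 (SE 0.10, adjusted p = 0.000921), and by 0.76 without ANG II library 3. Eci1 fell by 0.38 (adjusted p = 0.000502) and the reductase Decr1 by 0.34 (adjusted p = 0.00263), and both were called after scaling, at -0.61 and -0.57. Eci2, an isomerase found in mitochondria and peroxisomes, had 61.2 ± 4.18 FPKM in the control group and 56.7 ± 4.32 FPKM in the hypertensive-LVH group, with a log2 fold change of -0.11 and an adjusted p of 0.272, and after scaling it was at -0.33 (adjusted p = 0.00377). Acaa1a, the peroxisomal thiolase, had 52.4 ± 3.37 and 52.7 ± 4.07 FPKM, with a 95% interval of the log2 fold change from -0.15 to 0.16, and scaling turned its value from 0.01 to -0.22 (adjusted p = 0.0219).

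Because so many of these genes differed together, their promoter windows were read from RefSeq (GRCm38.p6). The search covered 33 windows for 30 of the 39 genes, each from 250 bases before to 50 bases after the start. Acaa2 was not searched, as windows on its chromosome were left out for the 39 genes. Those windows were kept among the windows of all genes given below. The windows of Acadm, of Hadha (most of which is also the window of Hadhb), of Hadh and of Ech1 are shown: Acadm is the most abundant gene of the step, the windows of Hadha and Hadhb overlap, and Hadh and Ech1 were called lower. Capitals mark the hexamer AGGTCA on either strand, the core that nuclear receptors such as PPARα and the oestrogen-related receptors recognise. Regions are chr3:153944594-153944893 for Acadm, chr5:30154931-30155230 for Hadha and chr3:131272052-131272351 for Hadh, all on the minus strand, and chr7:28825088-28825387 for Ech1 on the plus strand.
Acadm: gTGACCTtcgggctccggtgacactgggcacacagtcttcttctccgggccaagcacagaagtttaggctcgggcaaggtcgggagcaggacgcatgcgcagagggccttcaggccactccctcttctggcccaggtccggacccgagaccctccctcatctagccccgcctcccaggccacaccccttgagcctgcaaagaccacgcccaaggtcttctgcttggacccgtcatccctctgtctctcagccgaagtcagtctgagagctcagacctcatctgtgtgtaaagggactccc
Hadha: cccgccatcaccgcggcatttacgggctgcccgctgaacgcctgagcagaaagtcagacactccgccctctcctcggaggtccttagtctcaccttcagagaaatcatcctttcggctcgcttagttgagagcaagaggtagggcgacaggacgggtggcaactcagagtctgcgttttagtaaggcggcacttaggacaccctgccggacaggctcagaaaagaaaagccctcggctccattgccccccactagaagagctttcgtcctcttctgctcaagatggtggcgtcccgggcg
Hadh: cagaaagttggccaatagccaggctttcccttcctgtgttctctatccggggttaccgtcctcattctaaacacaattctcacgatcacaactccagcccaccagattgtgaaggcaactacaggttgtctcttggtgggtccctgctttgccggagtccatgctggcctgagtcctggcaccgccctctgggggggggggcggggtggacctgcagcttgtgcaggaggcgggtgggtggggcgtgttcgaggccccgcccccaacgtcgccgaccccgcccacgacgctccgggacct
Ech1: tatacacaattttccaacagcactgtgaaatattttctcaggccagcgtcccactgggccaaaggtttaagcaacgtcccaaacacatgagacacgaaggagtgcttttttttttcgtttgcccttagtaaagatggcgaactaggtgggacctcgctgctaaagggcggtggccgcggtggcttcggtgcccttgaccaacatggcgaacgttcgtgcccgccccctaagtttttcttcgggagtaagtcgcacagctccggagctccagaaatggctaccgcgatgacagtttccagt
The hexamer occurred in 7 of the 33 windows (21.2%), those of Acacb, Acadm, Acadvl, Cd36, Cpt1a, Echs1 and Ucp3, and in 16.3% of all 32851 windows of the same length. The longer motif TCAAGGTCA, which contains the hexamer, occurred in 0 of the 33 windows and in 0.423% of all windows. The direct repeat AGGTCANAGGTCA, which contains it 2 times, also occurred in 0 of the 33 and in 0.0396% of all windows. A match is a description of the letters in these windows.

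Electron transfer flavoprotein takes the electrons of the acyl-CoA dehydrogenases and passes them to the respiratory chain through its dehydrogenase Etfdh. Etfa, its α subunit, had 783, 752, 798 and 748 FPKM in the control libraries and 530.4, 544, 615 and 579 FPKM in the ANG II libraries. The groups were far apart. Etfa fell by 0.44 on the log2 scale (SE 0.06, adjusted p = 0.000392), and Etfdh fell by 0.37 (SE 0.06, adjusted p = 0.00106). Both were called after scaling, at -0.67 and -0.60. Etfb, the β subunit, was listed at only 0.567 to 2.60 FPKM, from 5 to 21 fragments per library, although both subunits are needed in equal number. In GENCODE M21, 58.3% of the exon length of Etfb lies under other genes on the same strand, 53.0% under Gm45233 alone, which is listed at 0 in all 8 libraries. As for Cpt1b, the value of Etfb is not read as its level, and its log2 fold change was -0.49 with an adjusted p of 0.052, and -0.62 after scaling (adjusted p = 0.0196).

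Thioesterases split an acyl-CoA back into the free fatty acid and coenzyme A. Acot13, a mitochondrial thioesterase and the most abundant gene of the step, had 385, 363, 379.6 and 374 FPKM in the control libraries. The ANG II libraries had 369.7, 379.8, 411 and 378 FPKM and overlapped with the controls. Its log2 fold change was 0.03 (SE 0.05, adjusted p = 0.632), with a 95% interval from -0.08 to 0.14, and -0.19 after scaling (adjusted p = 0.0273). Acot2, a long-chain thioesterase of the mitochondrial matrix, ran from 33.4 to 51.3 FPKM in the control libraries and from 30.4 to 33.3 FPKM in the ANG II libraries, with a log2 fold change of -0.25 (adjusted p = 0.147) as deposited and -0.47 after scaling (adjusted p = 0.014). Acot1, its cytosolic neighbour, had a log2 fold change of -0.37 (adjusted p = 0.166) as deposited and was called at -0.58 after scaling (adjusted p = 0.0394). Of the 50-base words of Acot2 transcripts 24.55% also occur in Acot1, and 13.56% of those of Acot1 in Acot2, so reads could be split between them. Both were highest in control library 2, and without it the log2 fold changes as deposited were -0.11 for Acot2 and -0.20 for Acot1.

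Malonyl-CoA blocks entry through carnitine palmitoyltransferase 1. Acacb, the acetyl-CoA carboxylase that makes it at the mitochondrial surface, fell by 0.48 (SE 0.06, adjusted p = 0.000376), from 73.4 ± 5.26 to 52.3 ± 2.63 FPKM. Mlycd, the decarboxylase that removes it, fell by 0.34 (SE 0.08, adjusted p = 0.00976), from 36.8 ± 4.64 to 28.6 ± 1.23 FPKM. After scaling both were called, at -0.70 for Acacb and -0.57 for Mlycd. The groups did not overlap for either gene, and the ratio of Acacb to Mlycd lay between 1.70 and 2.30 in the control libraries and between 1.69 and 1.93 in the ANG II libraries.

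Of the uncoupling proteins, carriers of the inner mitochondrial membrane, Ucp2 was called higher and Ucp3 was not called. Ucp2 (ENSMUSG00000033685, chr7:100493337-100502020, plus strand, GRCm38), the form that is widely expressed and abundant in immune cells, had 33.4, 48.0, 38.7 and 37.9 FPKM in the control libraries. It had 108, 74.1, 95.01 and 91.3 FPKM in the ANG II libraries, all above the highest control. Ucp2 rose by 1.20 on the log2 scale (SE 0.13, adjusted p = 0.000119) and by 0.97 after scaling (adjusted p = 0.000401). Ucp3, the muscle form, had 13.3, 65.6, 17.6 and 24.5 FPKM in the control libraries and 15.6, 8.72, 11.9 and 15.2 FPKM in the ANG II libraries. Control library 2 stood far above all others, and the remaining controls overlapped with the ANG II libraries. The log2 fold change of Ucp3 was -0.93 (SE 0.41, adjusted p = 0.111), and without control library 2 it was -0.48 (adjusted p = 0.163). Ucp2 made up 60.8% ± 13.2 of the summed FPKM of both in the control group and 87.9% ± 1.68 in the hypertensive-LVH group. The genes are neighbours on the plus strand of chromosome 7, with RefSeq starts 20367 bases apart. Their promoter windows, chr7:100472741-100473040 for Ucp3 and chr7:100493108-100493407 for Ucp2, are shown because the ratio of these neighbours separated the groups, with the hexamer AGGTCA again in capitals.
Ucp3: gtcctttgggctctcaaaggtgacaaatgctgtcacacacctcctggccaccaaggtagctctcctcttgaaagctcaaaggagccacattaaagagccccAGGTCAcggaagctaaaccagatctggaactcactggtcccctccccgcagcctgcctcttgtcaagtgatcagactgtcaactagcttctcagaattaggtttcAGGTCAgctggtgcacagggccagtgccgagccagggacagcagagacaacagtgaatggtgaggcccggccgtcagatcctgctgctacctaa
Ucp2: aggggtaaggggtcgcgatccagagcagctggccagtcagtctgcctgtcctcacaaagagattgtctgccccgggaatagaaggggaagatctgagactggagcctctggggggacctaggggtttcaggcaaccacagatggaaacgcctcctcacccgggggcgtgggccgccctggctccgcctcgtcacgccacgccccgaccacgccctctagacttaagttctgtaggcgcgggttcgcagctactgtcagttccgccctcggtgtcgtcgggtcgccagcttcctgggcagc
The Ucp3 window held 2 matches and the Ucp2 window 0.

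Triglyceride synthesis ends with the diacylglycerol acyltransferases Dgat1 and Dgat2, which use fatty acyl-CoA for storage. Dgat2 (ENSMUSG00000030747, chr7:99153658-99182719, minus strand, GRCm38) had 274, 318, 295 and 330.0 FPKM in the control libraries and 177, 193, 204 and 211 FPKM in the ANG II libraries. The ANG II libraries were all below the controls. Dgat2 fell by 0.63 on the log2 scale (SE 0.07, adjusted p = 0.000209). Dgat1 had 18.4, 19.1, 17.99 and 17.0 FPKM in the control libraries and 20.1, 21.03, 19.6 and 20.7 FPKM in the ANG II libraries. The ANG II libraries were slightly but without exception above the controls as deposited. The log2 fold change of Dgat1 was 0.16 (SE 0.06, adjusted p = 0.0546) and turned to -0.06 after scaling (adjusted p = 0.491).

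Ratios between related genes (isoforms, subunits of an enzyme, or the opposing enzymes Acacb and Mlycd) do not depend on the scaling of a library, and 12 such ratios were compared by exact two-sided permutation tests. The groups did not overlap for 4 of them, each with the smallest p that 4 against 4 libraries allow (0.0286), which became 0.0857 after Benjamini-Hochberg adjustment over the 12 ratios. No ratio could therefore pass an adjusted threshold of 0.05 unless more of them separated. Ucp2 to Ucp3 ran from 0.732 to 2.52 in the control libraries and from 6.01 to 8.502 in the ANG II libraries, a 4.61-fold difference of geometric means. Acsl5 to Acsl1 ran from 0.0247 to 0.0345 and from 0.0526 to 0.0669, a 2.06-fold difference. Acsl4 to Acsl1 differed 1.79-fold. Dgat2 to Dgat1 ran from 14.9 to 19.4 in the control libraries and from 8.79 to 10.4 in the ANG II libraries, lower in all 4. The other 8 ratios overlapped, with exact p-values from 0.0571 for Fabp4 to Fabp3 to 0.629 for Cpt1a to Cpt1b, and the latter and Etfa to Etfb inherit the counting limit of Cpt1b and Etfb.

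**Figure D4:**
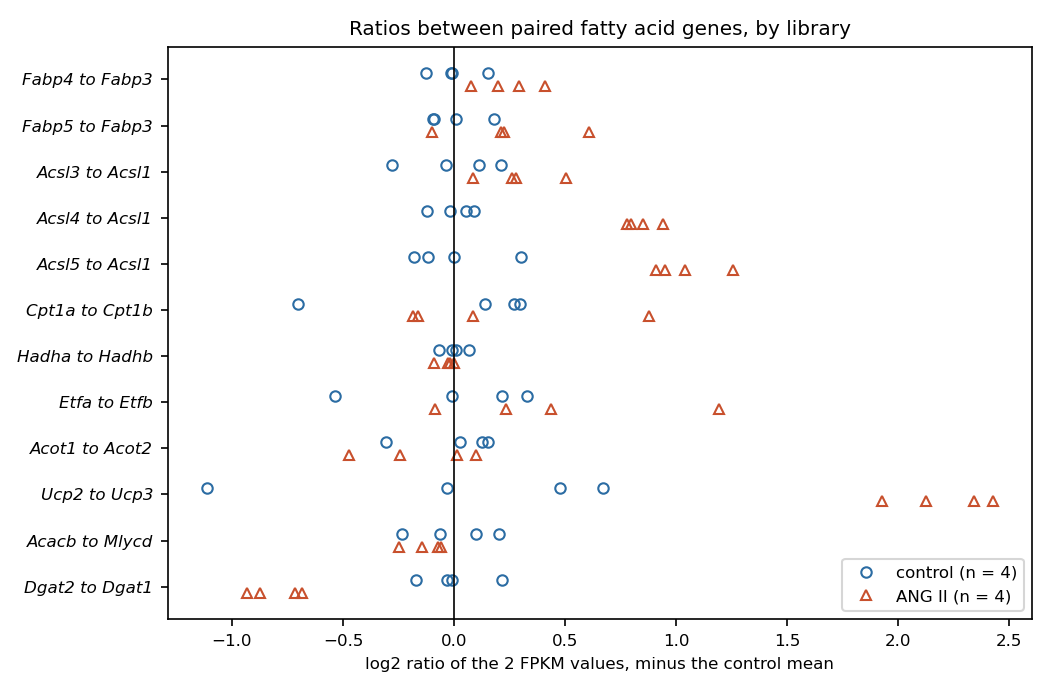
Log2 ratio of FPKM between paired genes in each library, minus the mean of the control libraries, with circles for control and triangles for ANG II. The groups separate for Ucp2 to Ucp3, Acsl5 to Acsl1, Acsl4 to Acsl1 and Dgat2 to Dgat1, and overlap for the other 8 ratios, among which Hadha to Hadhb has the narrowest spread.

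Among 57 tested genes of neighbouring lipid pathways, 5 were called higher and 2 lower as deposited, where 14% and 1.41% of all genes were called, and 2 higher and 13 lower after scaling. At an adjusted p under 0.05, 17 fell and 13 rose, where 4.91% and 28.4% of all genes did, and after scaling 28 were lower and 4 higher, against 13.1% and 14.6% of all genes. All 4 tested genes of propionyl-CoA handling fell, as did 7 of 10 genes of other mitochondrial acyl-CoA oxidation, with median log2 fold changes of -0.33 for each list. Of 12 tested genes of peroxisomal oxidation, 2 fell and 2 rose as deposited (median -0.07 on the log2 scale), and after scaling 6 were lower (Phyh, Amacr, Hsd17b4, Pecr, Abcd3 and Scp2) and 0 higher, with a median of -0.30. As deposited, 9 of 10 genes of fatty acid synthesis, elongation and desaturation rose, with a median log2 fold change of 0.43. After scaling the median was 0.23 and 3 of the 10, Scd2, Elovl1 and Fads1, were higher, while the elongase Elovl5 had a log2 fold change of -0.0024 (adjusted p = 0.988), against 0.22 as deposited. The stearoyl-CoA desaturase Scd2 had a log2 fold change of 1.03 (adjusted p = 7.26e-05), from 6.10 ± 0.661 to 13.5 ± 1.46 FPKM. The elongase Elovl1 rose by 0.96 (adjusted p = 6.53e-05), and the desaturases Fads1 and Fads2 by 0.62 and 0.59 (adjusted p = 0.00036 and 0.0221). The thioesterase Acot9 was also called higher, at 0.51, and not after scaling, at 0.29. Acsl6, an acyl-CoA synthetase of brain and erythroid cells, fell by 0.62 (adjusted p = 0.00666) at a level of 4.20 ± 0.683 FPKM in the control group. The other gene called lower, Ivd, the isovaleryl-CoA dehydrogenase of leucine breakdown, fell by 0.51 (adjusted p = 0.00015), from 378 ± 2.07 to 266 ± 19.6 FPKM, and by 0.74 after scaling; it was named after its values were seen. After scaling, Scd2 and Elovl1 were called higher, at 0.82 and 0.75, and Fads1 and Fads2 were not, at 0.41 and 0.39.

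Other gene lists moved with these results, and their part in them was not tested. Counts are at an adjusted p under 0.05 (limma). By this rule 4.91% of all genes tested fell and 28.4% rose as deposited, and 13.1% and 14.6% after scaling. In bulk tissue, fewer cells of a type and less RNA per cell cannot be told apart. The summed FPKM of the 10 cardiomyocyte markers ran from 58678 to 59910 in the control libraries and from 44958 to 47241 in the ANG II libraries. Of these markers, 6 fell as deposited and 9 were lower after scaling, and their deposited median log2 fold change of -0.39 stood beside the -0.40 of the β-oxidation genes. The markers differed among themselves, from -0.58 for Tnni3 (limma, adjusted p = 0.00102) to 0.05 for Ryr2 (adjusted p = 0.751). Tnnt2, Mb and Actc1 also did not pass as deposited. The 22 genes of the nuclear-encoded respiratory chain had a median of -0.28, with 16 lower, and -0.50 with 18 lower after scaling. Beside the genes that rose, such as Ucp2, Acsl5 and Fabp4, the 10 macrophage markers summed to 304 to 381 FPKM in the control libraries and 680.2 to 948 FPKM in the ANG II libraries, with all 10 higher, or 9 after scaling. The 8 fibroblast markers summed to 535 to 794 and 2840 to 3318 FPKM, with all 8 higher. The 10 endothelial markers summed to 539 to 577 and 613 to 710.2 FPKM, with 4 higher and 0 lower as deposited and a median log2 fold change of 0.18. After scaling 1 of them, Pecam1, was higher, 1, Kdr, was lower, and the median was -0.04. The 5 erythroid markers summed to 96.8 to 487 and 581 to 2083 FPKM, with all 5 higher. The 9 adipocyte markers summed to 16.9 to 23.6 and 22.7 to 39.4 FPKM, most of it from Cidea, the 1 marker of the list called higher (log2 fold change of 0.55, adjusted p = 0.00198, and 0.33, adjusted p = 0.0233, after scaling), and Ucp1 was at 0 in 7 of the 8 libraries. Of the 7 skeletal muscle genes only 4 passed the filter on low values, Myh4 was at 0 in all 8 libraries, and the remaining signal came mainly from genes also expressed in heart. Of these 4, Acta1 and Tnnt3 were called higher, with log2 fold changes of 1.25 and 1.28, and Ckm was lower, at -0.39. After scaling the values were 1.02, 1.14 and -0.62.

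Several values of the control group rested on 1 library. Control library 2 was the highest of the controls for 23 of the 39 genes, while it was the highest for 30.1% of all genes tested. For Ucp3 it had 65.6 FPKM against 13.3 to 24.5 in the other controls, and for Acot2 51.3 FPKM against 33.4 to 35.1. Outside the 39 genes, and chosen after their values were seen, Pdk4, the kinase that turns off pyruvate dehydrogenase, had 1268 FPKM in control library 2 against 239 to 609 in the others. Angptl4, an inhibitor of lipoprotein lipase, had 40.3 FPKM against 6.57 to 7.00. In the hypertensive-LVH group, library 3 was the highest for 21 of the 39 genes and for 25.0% of all genes tested, and it also had the highest mitochondrially encoded share, 24.6% against 22.1% to 22.4%.

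**Figure D5:**
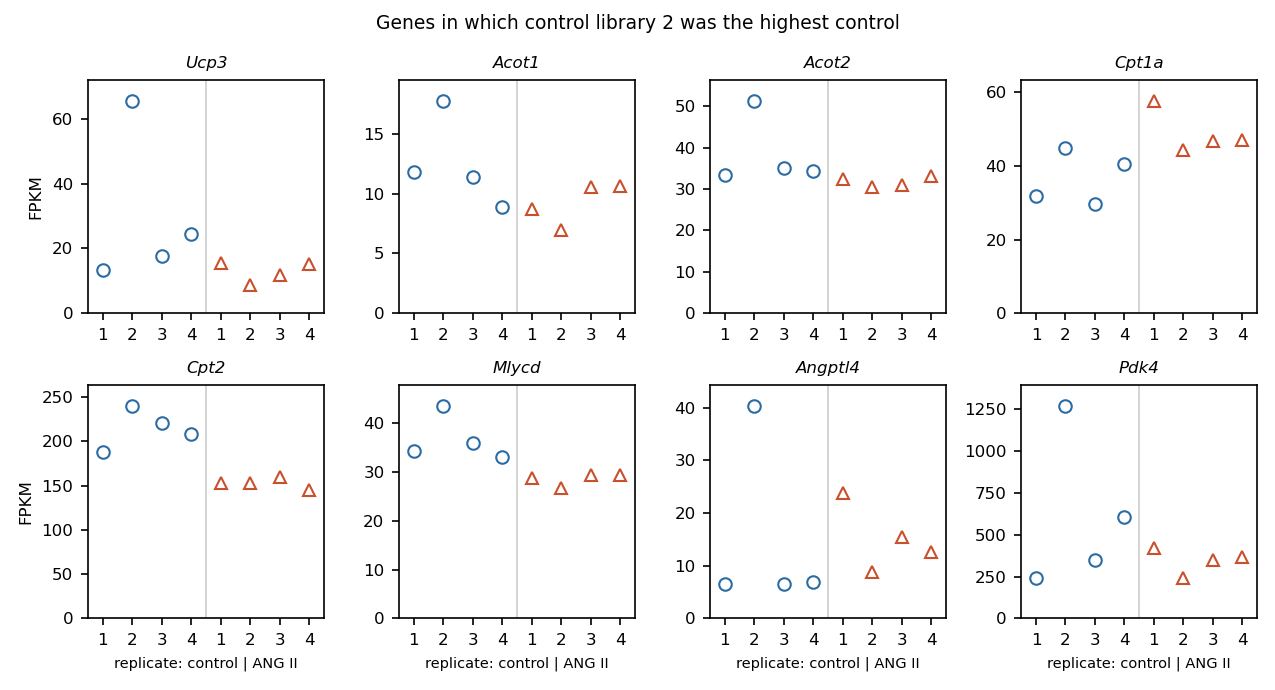
FPKM by library for 6 of the 39 genes and for Angptl4 and Pdk4, with circles for control and triangles for ANG II libraries, numbered by replicate. Control library 2 is the highest control in each panel, with 65.6 FPKM for Ucp3 and 1268 FPKM for Pdk4.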

How the data were processed

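RNA-seq of left ventricles from 4 control and 4 ANG II-infused mice was used here, grouped by their treatment labels. The paper reports more samples per group and another deposited series, which was not used. For these libraries the authors deposited 1 table of FPKM values with a column for each library. The submitters' processing notes name HISAT, Bowtie2 and RSEM, while their roles, versions, the annotation and the use of strand are not given in the sources used here. The 39 genes, the gene lists and the tests were chosen with earlier results of these data known.

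The differential analysis used limma 3.58.1 in R 4.3.3 on log2(FPKM + 1) with a variance trend, over the 19364 genes whose mean reached 0.1 FPKM. P-values were adjusted over all of them (Benjamini-Hochberg), and calls also required an absolute log2 fold change above 0.5, the study's thresholds with base 2 assumed. Such fold changes understate the change of low genes. The script was also run on simulated data with a dispersion of 0.01 and no shift in scaling between the groups. That run therefore cannot show how scaling moves the calls.

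Fragments were recovered from the steps of the FPKM values and the mean transcript lengths of GENCODE M21. Among values under 60 fragments, at least 99.0% in genes with 1 exon and 96.6% in genes with several exons were whole within 0.02. Ratios and shares were compared by exact two-sided permutation over 70 allocations. Values in each library were given for called genes, for the most abundant gene of each step and for genes of ratios without overlap. Of the other lipid genes, the 6 called genes with the largest absolute log2 fold change were named, and Ivd, the other called gene, was added after seeing the values. Phyh, Amacr, Hsd17b4, Pecr, Abcd3, Scp2, Elovl5, Vldlr, Lpl and Angptl4 were not called as deposited and were named outside this rule. The alternatives were other pseudocounts, filters, scalings and thresholds, a replicate block, counts, and leaving out each library. Voom with median-of-ratios scaling, and leaving out Cpt1b and Etfb, were added after seeing the data.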

Additional observations from a re-analysis of the deposited data

Results flagged for a closer look

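The 39 genes, the 12 ratios and the mitochondrially encoded share of FPKM were examined for 1 library far from the other 3 of its group. The measure was the gap to its nearest neighbour over the whole range of the group (Dixon's ratio, against its critical value for 4 samples). Of 104 groups examined, 5 were flagged, and chance flags about 1 group in 20. In the hypertensive-LVH group, library 3 stood above the others for Acadm (1249.6 FPKM), for Etfdh (306 FPKM) and for the mitochondrially encoded share of FPKM (24.6%). In the control group, library 2 stood above the others for Acot2 (51.3 FPKM). The log2 ratio of Cpt1a to Cpt1b in control library 1 (2.81) lay below those of the other controls, and it rests on the low count of Cpt1b. Without ANG II library 3, the log2 fold change of Acadm was -0.51 (adjusted p = 0.000232) in place of -0.47, and that of Etfdh -0.41 in place of -0.37.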

How the results depend on the processing

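Calls among the 39 genes moved with the scaling, the threshold and the libraries used. Genes called lower numbered 20 with median-of-ratios scaling, 17 with quantile normalization, 17 with a common total without the mitochondrially encoded and top 10 genes, and 21 with voom on recovered fragments and median-of-ratios scaling. Genes called higher numbered 1 with median-of-ratios scaling and 1 with quantile normalization. In the order of the 4 scalings, 4.15%, 5.09%, 3.23% and 5.5% of all genes were called lower and 8.62%, 7.3%, 9.59% and 11.4% higher. The median log2 fold change was then -0.55, -0.50, -0.49 and -0.55 in the order of the 4 scalings above. By adjusted p alone 19 were lower and 5 higher, and above an absolute log2 fold change of 1, 0 were lower and 1 was higher, against 0.145% and 3.96% of all genes. Leaving out 1 library gave 2 to 5 higher and 4 to 7 lower. The other lipid genes called lower numbered 13 with median-of-ratios scaling, 11 with quantile normalization, 10 with the common total, 14 with scaled voom, 17 by adjusted p alone and 0 above a log2 fold change of 1. Those called higher numbered 2 under each of these 4 scalings, 13 by adjusted p alone and 1 above a log2 fold change of 1, and leaving out 1 library gave 3 to 5 higher and 1 to 4 lower.

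The sign turned in some alternative for 7 of the 39 genes, 0 of which had an adjusted p under 0.05 as reported. In the order median-of-ratios, quantile and scaled voom, the log2 fold change was -0.042, -0.026 and -0.044 for Fabp3, -0.22, -0.15 and -0.23 for Acaa1a, -0.19, -0.095 and -0.20 for Acot13, and -0.057, -0.075 and -0.062 for Dgat1. With the common total it was -0.17 for Acaa1a, -0.14 for Acot13 and -0.0077 for Dgat1, and quantile normalization gave -0.11 for Cpt1b. Leaving out 1 library gave -0.056 to 0.055 for Cd36, -0.069 to 0.042 for Acsl3 and -0.035 to 0.056 for Acaa1a. Of these 7, 6 passed an adjusted p under 0.05 in some alternative. Acaa1a (adjusted p = 0.0219), Acot13 (adjusted p = 0.0273) and Cd36 (-0.23, adjusted p = 0.0368) were lower with median-of-ratios scaling and with scaled voom, Acsl3 (-0.32, adjusted p = 0.0407) was lower with quantile normalization, and Fabp3 and Dgat1 were higher in 3 and 4 alternatives that kept the deposited scaling. Over the 39 genes, 3 that passed as reported (Cpt1a, Fabp4 and Acsl4) did not in some alternative, and 14 that did not pass did in some. The cause was not tested. Same-numbered libraries did not deviate together (correlations from -0.03 to 0.06, against -0.09 to 0.09 for the other pairs). Such correlations cannot show whether same-numbered libraries were handled together, and the main fit did not pair them. The replicate block gave 2 genes called higher and 4 lower, and a median of -0.32. Of 18 refits for each gene, calls were lost in 2 instances, both of Acsl5 under other scalings. Of the 39 genes, Cpt1b and Etfb were the ones with under 100 fragments in some library.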

Other observations

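Beyond the chain itself, genes that supply fatty acids at the vessel wall and membrane were read as a list. Of its 6 tested genes, 1 (Vldlr) fell at an adjusted p under 0.05 (limma) as deposited and 2 (Vldlr and Lpl) were lower after median-of-ratios scaling, and 0 rose. By the same rule 4.91% of all genes tested fell and 28.4% rose as deposited, and 13.1% and 14.6% after scaling. Lpl, the lipoprotein lipase that frees fatty acids in the capillary, was the most abundant of them, with 2266 ± 82.4 FPKM in the control group and 2115 ± 171 FPKM in the hypertensive-LVH group (log2 fold change of -0.10, adjusted p = 0.314, and -0.33, adjusted p = 0.0126, after scaling). The number of genes at 1 FPKM or more was 12540.5 ± 151.6 in the control group and 13241.5 ± 80.0 in the hypertensive-LVH group (exact two-sided permutation p = 0.0286).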
